A study of Drosophila melanogaster with 4 samples.

Results

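The genes described here act in cuticle tanning and melanin pigmentation. They are ple, Ddc, b, e, t, y, yellow-c, yellow-d, yellow-f and stw. These 10 genes were taken by symbol, after the transcript accessions of each row of the deposited table had been matched to NCBI symbols, and each was found in a row of its own among 16198 loci. The larvae were whole Drosophila melanogaster in the third instar at 100 h after egg laying, from flies kept on a diet of cornmeal, sugar and yeast. One group was labelled kr-h1 mutant and was homozygous for the allele kr-h1[7], and the other was labelled wildtype. Kr-h1 is a zinc-finger transcription factor of the juvenile hormone response. Neither the nature of the allele, nor the genetic background of either group, nor the number of larvae in a library is stated in the labels.

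Each group comprised 2 libraries of polyadenylated RNA, and the authors' table gives 1 FPKM value per gene and group (fragments normalised for transcript length and library depth). No value below therefore carries a replicate error. A difference is called here where the Cuffdiff q-value in the authors' deposited table is at most 0.05. Kr-h1 itself had 9.79 FPKM in mutant-labelled and 2.98 FPKM in wildtype-labelled larvae (3.28-fold higher, authors' deposited table, q-value 0.000889). The level of the mutated gene was thus not lower under the mutant label, and the directions below rest on the group labels alone.

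Insect cuticle hardens and darkens when catecholamines made from tyrosine are oxidised and cross-linked to cuticle proteins and chitin. Epidermal cells make dopamine from tyrosine through DOPA, and then either conjugate it to beta-alanine, which gives tan cuticle, or pass DOPA and dopamine towards black and brown melanin. In Drosophila larvae most of the cuticle is pale, while the mouth hooks and denticles are dark, and the whole larval cuticle is tanned when it becomes the pupal case. Dopamine is also a neurotransmitter, so some of these enzymes act in neurons as well as in epidermis.

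None of the 10 genes was called different between the groups. The authors tested 5 of them, t, yellow-c, yellow-d, yellow-f and stw, and called 0 higher and 0 lower with Cuffdiff. Over all 7058 tested loci 13.0% were called, 4.32% as higher and 8.73% as lower under the mutant label. At an unadjusted p under 0.05 the count was 1 of the 5 tested members, stw, against 25.8% of all tested loci. The other 5 members, ple, Ddc, b, e and y, were marked as not tested in the authors' deposited table. Their values are given as a description, and nothing can be said of a difference in either direction.

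Most of these genes were low in whole larvae. Among the 10 genes the median level was 2.91 FPKM in mutant-labelled and 2.41 FPKM in wildtype-labelled larvae, and the 10 levels summed to 57.6 FPKM and 47.8 FPKM in these groups. The oxidase gene stw alone made up 42.3% of the mutant-labelled and 38.8% of the wildtype-labelled sum. In mutant-labelled larvae the order from high to low was stw, yellow-d, t, yellow-c, yellow-f, ple, Ddc, e, b and y. In wildtype-labelled larvae it was stw, yellow-d, yellow-c, yellow-f, ple, Ddc, t, e, b and y. Apart from t, which stood at place 3 in mutant-labelled and place 7 in wildtype-labelled larvae, the order was the same. Neighbours in either order could not be compared with a replicate spread.

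**Figure D1:**
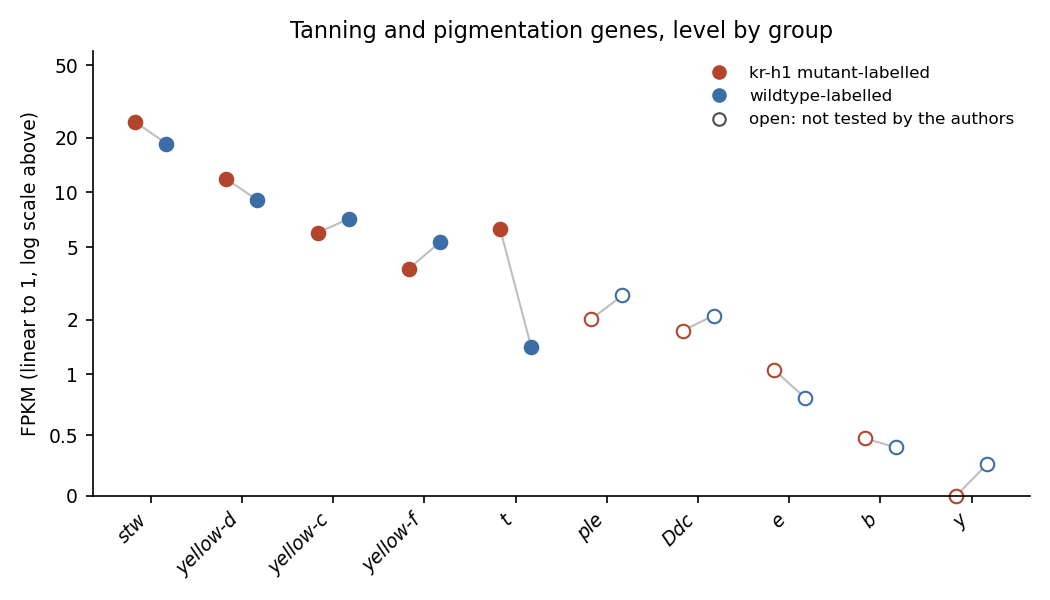
Levels of the 10 genes in FPKM (vertical axis, linear to 1 and logarithmic above), with the kr-h1 mutant-labelled value on the left and the wildtype-labelled value on the right of each pair, 1 value per group and no error bars. Filled points are genes the authors tested, and open points are genes they did not test. The gene t shows the widest gap on this axis, with 6.31 and 1.42 FPKM, and the other 9 pairs lie closer together.

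The first enzymes of the pathway were expressed at a low level in both groups. The gene ple encodes tyrosine hydroxylase, which makes DOPA from tyrosine and is rate-limiting for dopamine synthesis. It had 2.01 FPKM in mutant-labelled and 2.72 FPKM in wildtype-labelled larvae. Ddc encodes DOPA decarboxylase, which makes dopamine from DOPA and is also needed for serotonin synthesis. It had 1.74 FPKM in mutant-labelled and 2.11 FPKM in wildtype-labelled larvae. Both values were lower under the mutant label, by 1.35-fold for ple and 1.21-fold for Ddc, and neither gene was tested. The product of FPKM and exonic length in kilobases, a rough guide to fragment number, was 9.001 for ple, and 71.7% of the loci within 1.5 times of it were tested. The row of ple spans 6713356 to 6719525 on arm 3L and has its coordinates to itself. That of Ddc spans 19114401 to 19120306 on arm 2L and shares them with CG10561, so fragments there could be divided between both genes.

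Conjugation of dopamine to beta-alanine was represented by b, e and t. The gene b (black) encodes a decarboxylase that makes beta-alanine from aspartate, and e (ebony) encodes the synthetase that joins beta-alanine to dopamine. For b the levels were 0.474 FPKM in mutant-labelled and 0.399 FPKM in wildtype-labelled larvae. For e they were 1.06 and 0.810 FPKM in the same groups. Both were slightly higher under the mutant label (1.19-fold for b and 1.31-fold for e), and neither was tested. The gene b lies on arm 2L at 13821248 to 13823979 and e on arm 3R at 21229839 to 21237177, each in a row that shares its coordinates with no other.

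The reverse step showed the widest difference among the 10 genes on the scale of log2(FPKM + 1). The gene t (tan) encodes the hydrolase that frees dopamine from its beta-alanine conjugate, and in the eye frees histamine in the same way. It had 6.31 FPKM in mutant-labelled and 1.42 FPKM in wildtype-labelled larvae, a 4.44-fold higher value, which on the scale of log2(FPKM + 1) is a difference of 1.59. In FPKM the difference of stw was wider (5.85, against 4.89 for t). The difference of t was not called (authors' deposited table, p-value 0.0759, q-value 0.250). The row lies on arm X at 9217655 to 9223257 and shares its coordinates with no other row. In FPKM, which is per length, the level of t exceeded that of e in both groups.

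How large a difference had to be before it was called varied with abundance and length. The product of FPKM and length was 7.63 for t (mean of both groups). Of 1209 other tested loci within 1.5 times of it, 13 (1.08%) were called. The smallest fold among those called with values above 0 in both groups was 2.24, and the median was 4.02. The fold of t therefore lay above that median, although t was not called. The median rests on at most 13 loci and leaves out any called locus listed at 0 in a group. For yellow-f (product 6.58) 0.833% of such loci were called, and their smallest fold was 2.90. For yellow-c (10.5) and yellow-d (18.3) the shares were 2.00% and 5.18%, and the smallest called folds 1.91 and 1.54. The observed differences of these 3 yellow genes were smaller than any fold called in their range, so the lack of a call does not show equal levels.

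**Figure D2:**
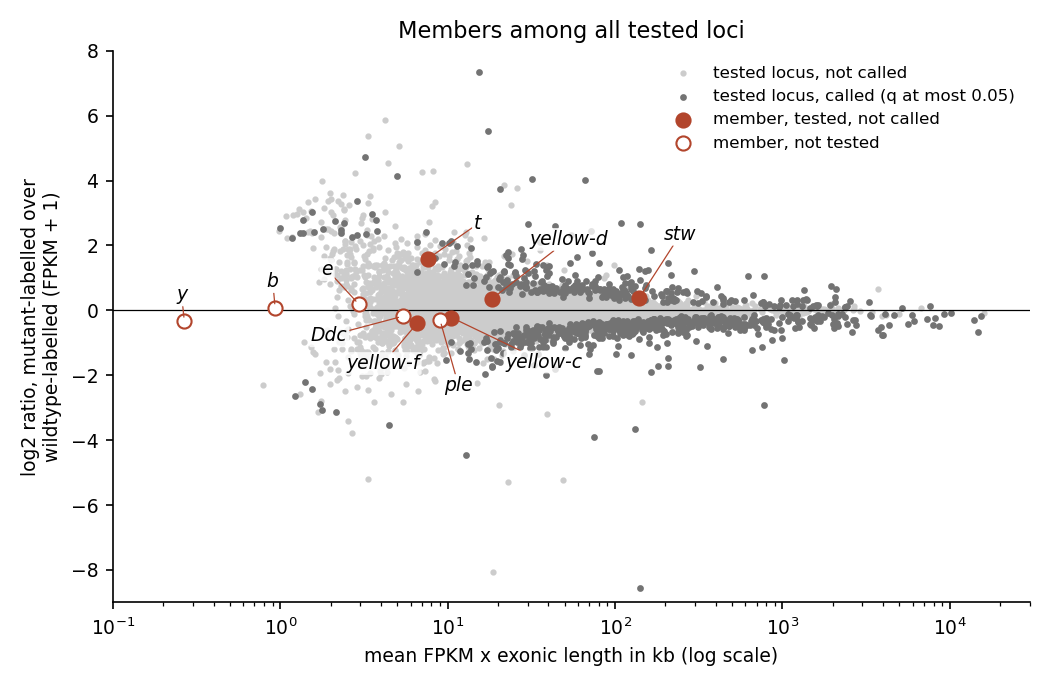
Log2 ratio of mutant-labelled over wildtype-labelled FPKM + 1 (vertical axis) against mean FPKM multiplied by exonic length in kilobases (horizontal axis, log scale), for all tested loci with a known length, with called loci in dark grey. The 5 tested members (filled, red) were not called, with t at 1.59 and the other 4 between -0.40 and 0.38, and the 5 untested members (open) lie at a product of at most 9.001.

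The gene of the final oxidation was the most abundant of the 10. The gene stw (straw) encodes laccase 2, a multicopper oxidase that oxidises catechols in the cuticle and is required for hardening and darkening. It had 24.4 FPKM in mutant-labelled and 18.5 FPKM in wildtype-labelled larvae, a 1.32-fold higher value. The difference was not called (authors' deposited table, p-value 0.0375, q-value 0.162). The row spans 5413744 to 5456095 on arm 2R, takes in 5 transcript accessions and shares its coordinates with no other row. Its product of FPKM and length was 139, and 29.2% of the 681 other tested loci within 1.5 times of that were called, down to a fold of 1.18 and with a median of 1.39. Loci of this range were thus called at folds below that of stw.

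The yellow genes encode secreted proteins related to the royal jelly proteins of bees. The founding member y (yellow) is required for black melanin in the adult cuticle and in the larval mouthparts, and yellow-f encodes an enzyme that converts dopachrome during melanin synthesis. The gene y was listed at 0 in mutant-labelled larvae and had 0.262 FPKM in wildtype-labelled larvae. Its row carries the coordinates of a bundle of 19 rows on arm X (268509 to 470726), and it was not tested. For yellow-f the levels were 3.81 FPKM in mutant-labelled and 5.33 FPKM in wildtype-labelled larvae (1.40-fold lower, authors' deposited table, q-value 0.672). The level of yellow-c was 6.0005 FPKM in mutant-labelled and 7.15 FPKM in wildtype-labelled larvae (1.19-fold lower, authors' deposited table, q-value 0.784). In the other direction, yellow-d had 11.8 FPKM in mutant-labelled and 9.08 FPKM in wildtype-labelled larvae (1.30-fold higher, authors' deposited table, q-value 0.513). The 3 genes with a tested value did not share a direction, and none of these differences was called. The row of yellow-f lies on arm 3R (12986041 to 12993201), that of yellow-c on arm 2L (15035394 to 15038861) and that of yellow-d on arm 2R (23377866 to 23383424). All 3 share their coordinates with other rows.

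Other yellow genes were not called either. With the 9 further genes of the list and yellow-d2, which was added after its values were seen, 14 yellow genes were found. Of these 8 were tested and 0 were called by Cuffdiff, also with 0 at an unadjusted p under 0.05. Over all tested loci 13.0% were called and 25.8% had such a p. Among tested loci of similar product the share called ran from 0.833% for yellow-f to 13.9% for yellow-d2. The lack of calls is thus near what such loci gave. Of the 8 tested yellow genes, 5 had the lower value in mutant-labelled larvae and 3 the higher one, with log2 ratios between -0.40 and 0.35. The most abundant genes of the list were yellow-e2 (12.9 FPKM in mutant-labelled and 16.0 FPKM in wildtype-labelled larvae) and yellow-e (12.3 and 14.3 FPKM), neighbours on arm 3R. Next to yellow-f lies yellow-f2, whose product also converts dopachrome, with 5.88 FPKM in mutant-labelled and 5.49 FPKM in wildtype-labelled larvae. Thus yellow-f and yellow-f2 had values on opposite sides, and neither was called. At the other end, yellow-g, yellow-g2 and yellow-k were listed at 0 in both groups. The gene yellow-d2 lies in the same bundle as yellow-d and was the highest of the 14, with 47.1 FPKM in mutant-labelled and 36.8 FPKM in wildtype-labelled larvae (1.28-fold higher, authors' deposited table, q-value 0.437). The adjoining genes yellow-d and yellow-d2 thus had similar folds, but reads in a shared bundle could be divided between them.

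**Figure D3:**
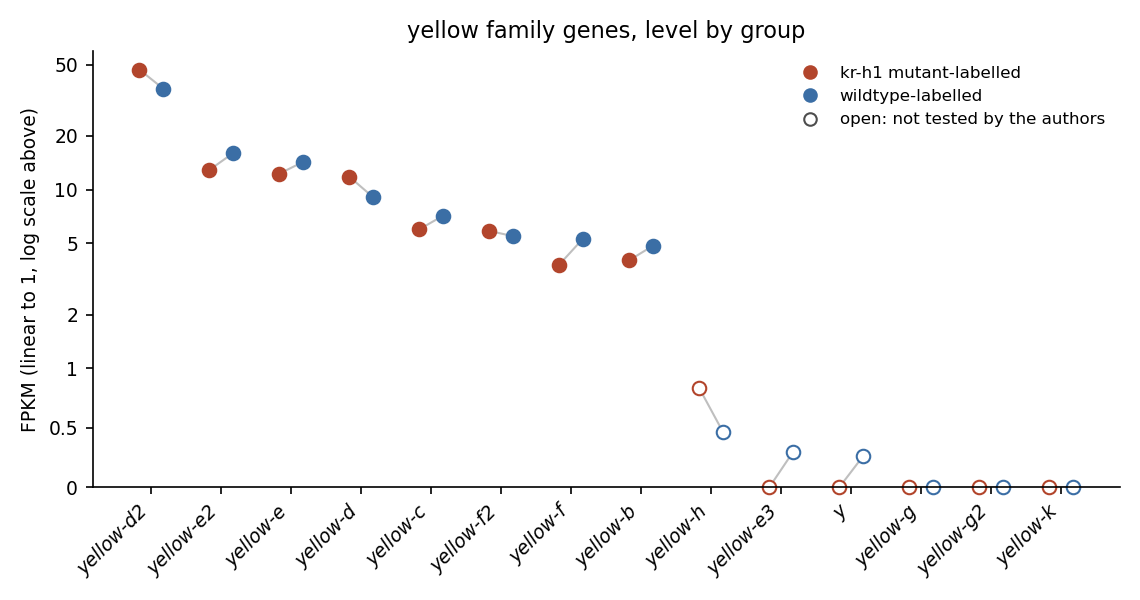
Levels of y, yellow-c, yellow-d, yellow-f, the 9 further yellow genes and yellow-d2 in FPKM (vertical axis, linear to 1 and logarithmic above), with the kr-h1 mutant-labelled value on the left of each pair and the wildtype-labelled value on the right. Filled points were tested and open points were not. The highest pair is yellow-d2 (47.1 and 36.8 FPKM), yellow-f (3.81 and 5.33 FPKM) and yellow-b (4.03 and 4.86 FPKM) are the lowest tested pairs, and y and yellow-e3 are at 0 in mutant-labelled larvae only.

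The median log2 ratio of the 5 tested members was 0.35, against -0.03 for all tested loci. Over all 10 members, tested or not, it was -0.054, since 5 had the higher and 5 the lower value in mutant-labelled larvae. The sign of the median thus depended on the untested genes, of whose direction nothing can be said. Among the 5 tested members 3 had the higher and 2 the lower value, without a call, so no common direction was seen.

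Genes that supply precursors, and tetrahydrobiopterin as the cofactor of tyrosine hydroxylase, were examined next. The list also held genes that supply neither, among them amd, Tdc1 and Tdc2. Of 10 listed genes 9 were tested and 0 were called by Cuffdiff, with 1, Catsup, at an unadjusted p under 0.05. Over all tested loci 13.0% were called and 25.8% had such a p. Among tested loci of similar product the share called had a median of 7.29% over the 9 genes. Hn, the phenylalanine hydroxylase gene, which makes tyrosine, had 39.8 FPKM in mutant-labelled and 44.99 FPKM in wildtype-labelled larvae. Catsup, which restrains tyrosine hydroxylase and dopamine synthesis, had 35.3 FPKM in mutant-labelled and 44.4 FPKM in wildtype-labelled larvae (authors' deposited table, q-value 0.173). Pu encodes GTP cyclohydrolase, the entry to cofactor synthesis, and had 8.34 FPKM in mutant-labelled and 6.16 FPKM in wildtype-labelled larvae. Values of the 9 tested genes lay on both sides, from Tdc1 (log2 ratio -0.79) to Dhpr (0.47). Tdc1 is not a supply gene, and its row carries the coordinates of a bundle of 8 rows. With Tdc1 left out, the lowest was Sptr (-0.41).

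Among genes of amine N-acylation and beta-alanine supply, 2 of 8 tested genes were called higher and 0 lower, beside 4.32% and 8.73% of all tested loci. At an unadjusted p under 0.05 there were 4 of 8, beside 25.8%. The share called in either direction among tested loci of similar product had a median of 8.32% over the 8 genes. It was 13.9% for AANATL4 and 6.71% for AANATL6. Both called genes encode proteins of the arylalkylamine N-acetyltransferase-like family. AANATL6 rose 2.81-fold, with 33.5 FPKM in mutant-labelled and 11.9 FPKM in wildtype-labelled larvae (authors' deposited table, q-value 0.0305). AANATL4 rose 1.48-fold, with 91.5 FPKM in mutant-labelled and 61.9 FPKM in wildtype-labelled larvae (authors' deposited table, q-value 0.0263). They adjoin each other on arm 2R, AANATL6 at 19287983 to 19288995 and AANATL4 at 19289109 to 19289852, and as relatives they may share reads. Another gene of this cluster, AANATL5, was listed at 0 in both groups. AANAT1 (current symbol speck), whose enzyme acetylates dopamine and thereby diverts it from melanin, had 30.3 FPKM in mutant-labelled and 30.6 FPKM in wildtype-labelled larvae, and was not called (authors' deposited table, q-value 0.969). AANATL3 had 10.2 FPKM in mutant-labelled and 21.6 FPKM in wildtype-labelled larvae, also not called (authors' deposited table, q-value 0.0829). Within this family the values thus went in different directions. Uracil breakdown supplies beta-alanine by a route other than that of b, and its gene pyd3 had 22.2 FPKM in mutant-labelled and 30.003 FPKM in wildtype-labelled larvae (authors' deposited table, q-value 0.153).

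Of the other multicopper oxidases and the phenoloxidases, 3 of 6 genes were tested, and 1 was called lower and 0 higher, beside 8.73% and 4.32% of all tested loci. All 3 had an unadjusted p under 0.05, PPO3 in a row shared with another gene. Calls were frequent at this abundance. For PPO1, PPO2 and PPO3, between 33.3% and 43.3% of tested loci within 1.5 times of the product of FPKM and length were called. These shares count both directions, and 1 of 3 does not stand apart from them. PPO1, a prophenoloxidase of crystal cells used in melanisation of wounds and pathogens, fell 1.21-fold, with 65.0 FPKM in mutant-labelled and 78.8 FPKM in wildtype-labelled larvae (authors' deposited table, q-value 0.0328). Its row lies in a bundle of 6. PPO2, also of crystal cells, had 120 FPKM in mutant-labelled and 132 FPKM in wildtype-labelled larvae. The row of PPO3 pools it with l(2)k09913 and had 107 FPKM in mutant-labelled and 123 FPKM in wildtype-labelled larvae. These values cannot be assigned to PPO3 alone. Neither PPO2 nor the row of PPO3 was called. In bulk libraries fewer cells of a type and less RNA per cell cannot be told apart. The 4 crystal cell markers summed to 189 FPKM in mutant-labelled and 215 FPKM in wildtype-labelled larvae, nearly all of it PPO1 and PPO2. The other markers went both ways, with peb at 2.99 FPKM in mutant-labelled and 3.54 FPKM in wildtype-labelled larvae and lz at 0.707 and 0.288 FPKM, and neither was tested. The part of crystal cell number in the PPO1 difference was not tested. The relatives of stw were low, with Mco1 at 1.32 FPKM in mutant-labelled and 1.60 FPKM in wildtype-labelled larvae.

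Among proteases and serpins of the melanisation cascade, all 6 listed genes were tested and 0 were called by Cuffdiff. Their log2 ratios lay between -0.04 and 0.22, with 0 at an unadjusted p under 0.05. Over all tested loci 13.0% were called and 25.8% had such a p. Among tested loci of similar product the share called had a median of 7.40% over the 6 genes. The lack of a call does not show equal levels. MP1, a protease that promotes melanisation, had 21.2 FPKM in mutant-labelled and 20.1 FPKM in wildtype-labelled larvae. Spn27A, a serpin that restrains melanisation, had 15.9 FPKM in mutant-labelled and 15.3 FPKM in wildtype-labelled larvae. Hormones that trigger ecdysis and tanning were barely measured. The tanning hormone genes Burs and Pburs were listed at 0 in both groups and their receptor gene rk had 0.177 FPKM in mutant-labelled larvae and a listed 0 in wildtype-labelled larvae. The ecdysis-triggering hormone gene ETH was the only 1 of 8 tested, and it had 4.91 FPKM in mutant-labelled and 2.34 FPKM in wildtype-labelled larvae without a call (authors' deposited table, q-value 0.487). ETHR, its receptor gene, had 2.65 and 2.75 FPKM in the same groups.

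Transcription factors of pigment patterning and of the wound response, which includes Ddc and ple, were called in 0 of the 3 genes (of 8) that Cuffdiff tested, with 0 at an unadjusted p under 0.05. Over all tested loci 13.0% were called and 25.8% had such a p. Among tested loci of similar product the share called had a median of 14.9% over the 3 genes. The AP-1 genes kay (Fos) and Jra (Jun) had 13.1 and 12.0 FPKM in mutant-labelled larvae, against 12.3 and 10.7 FPKM in wildtype-labelled larvae. The gene grh (grainy head), an epidermal factor that acts on Ddc, had 7.84 FPKM in mutant-labelled and 6.63 FPKM in wildtype-labelled larvae. Across all these lists, 34 of 59 genes were tested, 2 were called higher (AANATL4 and AANATL6) and 1 lower (PPO1), shares that are read against 4.32% and 8.73% of all tested loci.

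Markers of the tissues that hold these genes were examined beside them. Of 9 tested markers of cuticle-secreting epidermis and trachea, 4 were called lower and 0 higher, beside 8.73% and 4.32% of all tested loci, and 6 had an unadjusted p under 0.05. Many of these markers are very abundant. The share called in either direction among tested loci of similar product had a median of 50% over the 9 markers. By that share 4 of 9 is not more than loci like these gave. All 4 calls were lower, as were 616 of the 921 calls over all tested loci. The median log2 ratio of the 9 markers was -0.17, against -0.03 for all tested loci, which were not matched for abundance. The 4 called markers were the chitin deacetylase genes serp (1.29-fold, with 121 FPKM in mutant-labelled and 156 FPKM in wildtype-labelled larvae) and verm (1.20-fold, 190 and 228 FPKM), and the cuticle protein genes Lcp3 (1.20-fold) and Lcp2 (1.11-fold). Lcp4 (19773 FPKM in mutant-labelled and 20804 FPKM in wildtype-labelled larvae) and Lcp1 (6406 and 6132 FPKM) were not called. The 10 markers summed to 39144 FPKM in mutant-labelled and 42187 FPKM in wildtype-labelled larvae, most of it from Lcp1 to Lcp4. The part of epidermal cell number in the members' values was not tested. Of the 8 neuronal markers Cuffdiff tested 2 and called 0 (1 at an unadjusted p under 0.05, elav), with Syt1 at 14.2 FPKM in mutant-labelled and 11.9 FPKM in wildtype-labelled larvae and elav at 2.78 and 5.09 FPKM. Over all tested loci 13.0% were called and 25.8% had such a p. Among tested loci of similar product 22.2% were called for Syt1 and 11.4% for elav. The 8 neuronal markers summed to 21.2 FPKM in mutant-labelled and 22.4 FPKM in wildtype-labelled larvae. The dopamine transporter gene DAT was at 0.312 FPKM in mutant-labelled larvae and a listed 0 in wildtype-labelled larvae, and the neuronal serotonin synthesis gene Trhn at a listed 0 in both. How much of ple and Ddc came from neurons was not tested.

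Of 8 genes that mark progress through the third instar, 3 were called lower and 0 higher, beside 8.73% and 4.32% of all tested loci, and 4 had an unadjusted p under 0.05. The share called in either direction among tested loci of similar product had a median of 37.0% over the 8 genes, close to 3 of 8. All 3 calls were lower, as were 616 of the 921 calls over all tested loci. The median log2 ratio of the 8 genes was -0.27, against -0.03 for all tested loci, which were not matched for abundance. Only Sgs1 had the higher value in mutant-labelled larvae (8.07 FPKM, against 6.63 FPKM in wildtype-labelled larvae). The called genes were Fbp1 (1.45-fold, with 139 FPKM in mutant-labelled and 201 FPKM in wildtype-labelled larvae), Eig71Ee (1.38-fold, 106 and 146 FPKM) and the salivary glue gene Sgs8 (1.31-fold, 535 and 699 FPKM). The glue genes Sgs7 (1441 FPKM in mutant-labelled and 1532 FPKM in wildtype-labelled larvae) and Sgs5 (339 and 403 FPKM) were not called. The 8 genes summed to 2678 FPKM in mutant-labelled and 3108 FPKM in wildtype-labelled larvae. Whether a shift in developmental stage between the groups bears on the tanning genes was not tested.

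**Figure D4:**
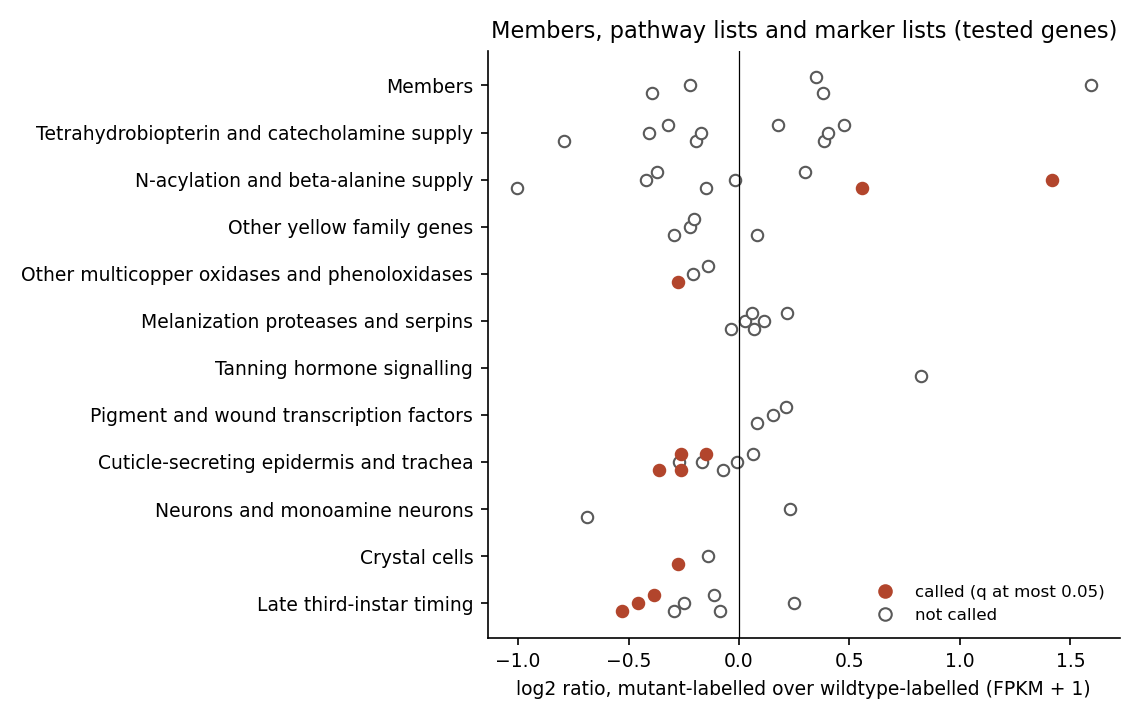
Log2 ratio of mutant-labelled over wildtype-labelled FPKM + 1 (horizontal axis) of each tested gene, for the members, the 7 pathway lists and the 4 marker lists, 1 row per list. Filled points were called in the authors' deposited table and open points were not, and PPO1 and PPO2 stand in 2 rows each. The 5 tested members are all open, with t at 1.59 on the right, and the called pathway genes are AANATL6 (1.42), AANATL4 (0.56) and PPO1 (-0.28).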

How the data were processed

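Libraries of polyadenylated RNA were read from both ends on a MiSeq, per the labels' protocols. TopHat2, Cufflinks and Cuffdiff are named, per the submitters' processing notes. Versions, settings, genome build, annotation and strand handling are, in all cases, not given in the sources used here. Each locus of the deposited Cuffdiff table has FPKM values made by the authors (1 per group over 2 libraries), the log2 fold change, a test statistic (a score in the deposited table that was not used) and the deposited p-value and q-value. Of 16198 loci, 7058 were tested, 9135 were not and 5 were set aside. Recomputed Benjamini-Hochberg values matched the deposited q-values within 1e-06. Depth is unknown. Nothing in the labels says that a group's libraries came from separate larvae, so the p-values measure at most the spread between libraries, which may be technical.

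Of 30529 accessions 99.2% matched NCBI Release 6 symbols, and all 10 members overlapped their Release 6 positions. Coordinates are the deposited table's, with a 1-based start. Exonic lengths are exon unions from Ensembl release 115. Log2 ratios of mutant-labelled over wildtype-labelled values carry a pseudocount of 1 FPKM, which understates the change of low genes, and folds are ratios of FPKM. The members and lists were chosen with earlier results of these data known. Named were all members and, per list, every called gene and the 2 most abundant others, with further genes named after their values were seen. Alternatives were thresholds of 0.01 and 0.1, adjustment over loci of at least 10 FPKM, shared loci left out, pseudocounts of 0.1 and 5, and 3 scalings. The adjustment and calls were tested on simulated data. Python 3.11.15, numpy 2.4.6, pandas 2.3.3 and matplotlib 3.10.9 were used.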

Additional observations from a re-analysis of the deposited data

How the results depend on the processing

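The counts of 0 members called higher and 0 called lower were the same at a q-value threshold of 0.1. They were also the same with adjustment over loci of at least 10 FPKM, which keeps 2 of the 5 tested members, not t. A threshold of 0.01 could not add a call. Nor could leaving out shared loci (which keeps 2, t and stw), because the deposited q-values were kept there. The log2 ratio of t was 2.07 with a pseudocount of 0.1 FPKM and 0.82 with 5 FPKM, settings that cannot change a sign. The 3 scalings moved the median of tested loci by at most 0.055, less than any member's ratio. The members' median log2 ratio of 0.35 became -0.054 when the untested members were counted, and it stayed within 0.1 under the other settings. For pathway genes, the 2 called higher became 0 at a threshold of 0.01. The 1 called lower became 0 at 0.01 and with shared loci left out, and 2 at 0.1. Over all tested loci, 305 called higher became 170 at 0.01, 460 at 0.1 and 196 without shared loci, and 616 called lower became 400 at 0.01, 818 at 0.1 and 387 without shared loci. Fewer loci were tested in the last setting. No paired analysis was possible because the table holds 1 value per group, and for the same reason no replicate could be left out. Without library values or counts, low members such as y and b have no measure of precision.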

Other observations

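The loci next to the members on their chromosome arms were described too, with 2 on each side. Of 40 such loci 19 were tested, 1 was called higher and 3 lower, beside 4.32% and 8.73% of all tested loci. The higher one was CG15369, beside t on arm X, with 407 FPKM in mutant-labelled and 171 FPKM in wildtype-labelled larvae (2.38-fold, authors' deposited table, q-value 0.000889). The lower ones were Phb1, a prohibitin gene beside Ddc (68.7 FPKM in mutant-labelled and 93.4 FPKM in wildtype-labelled larvae), Arpc1, an Arp2/3 complex gene beside b (84.2 and 106 FPKM), and ck, a myosin gene beside yellow-c (3.68 and 6.59 FPKM). The decarboxylase gene amd, a relative of Ddc that lies beside it, had 3.67 FPKM in mutant-labelled and 4.34 FPKM in wildtype-labelled larvae and was not called (authors' deposited table, q-value 0.788). CG5892, beside e, had 11.0 FPKM in mutant-labelled and 3.997 FPKM in wildtype-labelled larvae, also without a call (authors' deposited table, q-value 0.0563).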
